A study of Mus musculus with 11 samples.

Results

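The microglial identity genes are 35 genes that mark microglia, the resident macrophages of the brain, or the wider myeloid lineage. They were chosen by name, but with earlier results of these data known. All 35 were found by their Ensembl identifier among the 48709 genes of the count tables. RNA was sequenced from primary hippocampal neurons of CD1 mouse embryos (embryonic day 17), grown from pooled embryos and plated as a mixed dissociate, so that glia can be among the cells. Lipid nanoparticles were added on day 10 in vitro (DIV10) and RNA was taken after 48 hours at DIV12. The control group (6 samples) received nanoparticles with a negative control oligonucleotide, the mimic group (5 samples) received nanoparticles with a mimic of miR-181a-5p, and both groups received the lipoprotein ApoE4 together with the particles. No source said whether the samples of a group came from separate cultures, so p-values measure the spread between these samples, which may be technical.

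Microglia arise from yolk sac progenitors, not from the neural tube, and they live in brain tissue as surveying cells held in that state by CSF1R signalling and TGF-beta. They carry receptors that read neuronal signals (Cx3cr1, P2ry12), make the C1q chains that start the complement cascade and tag synapses, and digest what they engulf with lysosomal enzymes. Receptors that lack a signalling tail of their own, such as Trem2 and the Fc receptors, signal through the adaptors Tyrobp and Fcer1g. In a culture of hippocampal neurons these genes serve as markers of microglia carried over from the tissue, and the design asks whether their transcripts differ after delivery of miR-181a-5p.

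The oligonucleotides are shown because their seeds (nucleotides 2 to 8, in capitals) decide which transcripts pair with them. The mimic sequence equalled the mature mouse miR-181a-5p of RefSeq, which the genome (GRCm38.p6) encodes at chr1:137966468-137966490 (Mir181a-1) and chr2:38852741-38852763 (Mir181a-2), both on the plus strand. The control oligonucleotide has a different seed.
mimic miR-181a-5p: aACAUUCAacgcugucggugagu
negative control for mimic: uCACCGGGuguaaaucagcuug

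The 7-base match to the mimic seed, TGAATGT, was looked for in the longest annotated 3′ untranslated region (3′ UTR) of each protein-coding gene, on the transcript strand. It occurred in 2676 of 14489 tested genes with a 3′ UTR (18.5%), and in 1 of the 35 microglial identity genes. That gene was Itgam, which encodes the CD11b integrin of complement receptor 3, and its match lay at chr7:128118309-128118315 on the plus strand, position 932 of a 3′ UTR of 1114 bases. It is printed with its neighbouring bases and with the match in capitals, since it was the single match found among the members.
Itgam match: ttttactattaTGAATGTtgtctttttat
Of the 26 members with enough counts to be tested, 0 held the match. Their 3′ UTRs were shorter than those of all tested genes, with a median of 836.5 against 1201 bases. The match to the seed of the control oligonucleotide, CCCGGTG, occurred in 2.87% of tested genes and in 0 of 35 members. A match is a string of letters and not a shown site of binding.

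Total counts ranged from 17287168 to 48091231 per sample, and mitochondrial genes held 3.03% to 3.48% of them. Levels are given as CPM (counts per 1000000 of the TMM-scaled library size). A gene at 0 could have up to 3 counts behind it. That is 0.0631 CPM in the deepest sample (control replicate 1) and 0.175 CPM in the shallowest (control replicate 5). These limits and all intervals cover counting error or the spread between samples, and reads are not independent molecules. The count filter (5 counts or more in 50% of the samples or more) left 17365 genes to test, of which 495 had an adjusted p below 0.05 (edgeR quasi-likelihood test, Benjamini-Hochberg over all tested genes), 307 lower and 188 higher in the mimic group. Such genes are referred to as called, and they made up 2.85% of the genes tested.

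The microglial identity genes were weakly represented in these cultures. All 35 together took 65.19 to 71.12 CPM in the control samples. Of the 35, 26 passed the count filter, and their mean levels ran from 0.249 CPM (P2ry12) to 12.1 CPM (Sall1), with 10 genes below 1 CPM, 11 between 1 and 5 and 5 at 5 or more. The median tested member stood at 1.42 CPM, and 23.2% of all tested genes were at or below that level. Per kilobase of exon, the median over the 35 members was 0.408 CPM, against 102 for 11 neuron markers, 26.9 for 9 astrocyte markers, 4.04 for 11 fibroblast and vascular markers and 1.44 for 9 oligodendrocyte lineage markers. Neuron markers were thus the highest of these lists, as the label of the cells states, and every one of the 35 members had at least 1 count in some sample.

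**Figure D1:**
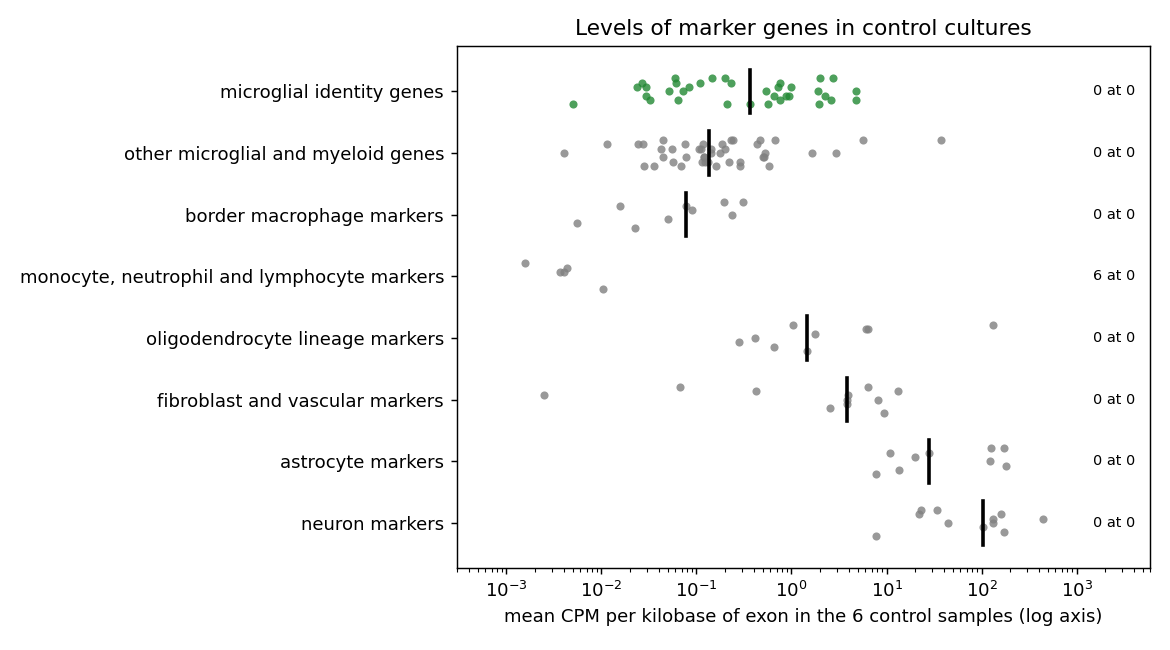
Mean level of each marker gene in the 6 control samples, in CPM per kilobase of exon on a log axis, with 1 point for each gene, a black bar for the median of each list, and the number of genes at 0 at the right. The microglial identity genes lie below the neuron and astrocyte markers, and 6 of 11 monocyte, neutrophil and lymphocyte markers are at 0.

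Markers of other blood-borne cells were at or near 0. The 11 markers of monocytes, neutrophils and lymphocytes, among them Ccr2, Ly6c2, S100a8 and Cd3e, had summed levels of 0 to 0.147 CPM in control and 0 to 0.152 CPM in mimic samples, and 0 of the 11 passed the filter. Border macrophage markers, which separate the macrophages of meninges and vessels from microglia, were present, as 5 of 9 passed the filter. Their summed level was 5.09 to 6.28 CPM in control and 3.35 to 5.70 CPM in mimic samples. Stab1, a scavenger receptor, had 3.16 ± 0.421 CPM (SD, n = 6) in control and 2.46 ± 0.497 (n = 5) in mimic samples, and Mrc1, the mannose receptor, had 1.25 ± 0.292 and 0.952 ± 0.319 CPM. The other tested markers were Lyve1, Ms4a7 and F13a1, with log2 fold changes of 0.01, 0.05 and 0.74, and 0 of the 5 were called. Ms4a7 and F13a1 passed the filter mainly through 1 group. Most of the 35 members are shared by microglia and these macrophages, so the level of a shared gene can come from both. Their parts were not separated.

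In the comparison of mimic with control, 0 of the 26 tested members were called by edgeR, and the smallest adjusted p was 0.0534, for Tmem119. Without adjustment, 7 members were lower in the mimic group at p below 0.05 (C1qa, Tyrobp, Fcer1g, Ctss, Laptm5, Lyz2 and Mpeg1) and 2 were higher (Tmem119 and Olfml3). These are 26.9% and 7.69% of the tested members, and the same counts over all tested genes were 8.41% lower and 7.30% higher. DESeq2 gave an adjusted p for 20 of the 26, of which 0 were called (smallest 0.0812), and set none for the other 6, P2ry12, Fcrls, Fcer1g, Ptprc, Ncf1 and Irf8. Before adjustment it had 4 of the 26 lower and 2 higher. In bulk RNA, fewer cells of a type and less RNA per cell cannot be told apart, so each level stands for both.

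By sign alone, 19 of the 26 tested members (73.1%) had a lower estimate in the mimic group, against 50.1% of all tested genes. The same share was 81.8% of the tested neuron markers, 77.8% of the astrocyte markers and 77.8% of the oligodendrocyte lineage markers. Most estimates were thus lower in those lists too. The share was 40% of the border macrophage markers and 10% of the fibroblast and vascular markers, where most estimates were higher. The median log2 fold change of the tested members was -0.27, where that of all tested genes was within 0.001 of 0. The estimates ran from -0.62 (Fcer1g) to 0.54 (Tmem119). Their precision was limited by the low counts, with a median standard error of 0.159 on the log2 scale against 0.0584 for all tested genes. The 95% intervals of single members reached between 0.119 and 0.703 to each side. The interval of 9 members left out 0, and that of 7 left out the median of the members.

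**Figure D2:**
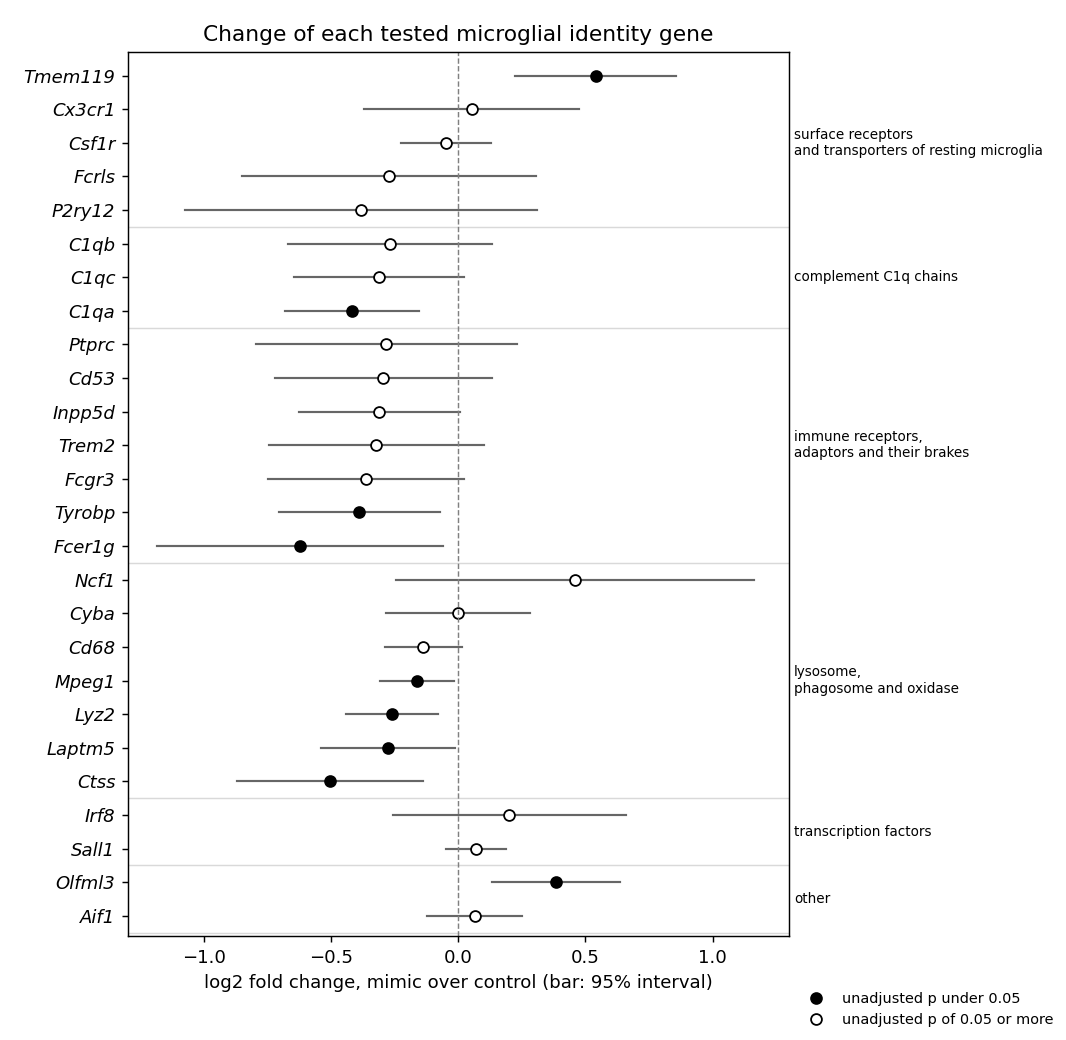
Log2 fold change of mimic over control for the 26 tested members (points) with 95% intervals (bars), ordered within each role, filled where the unadjusted p is below 0.05. The C1q chains and the immune receptors and adaptors all lie to the left of 0, while Tmem119 at 0.54 and Olfml3 at 0.38 lie to the right with intervals that leave out 0.

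The surface receptors and transporters that mark resting microglia did not share a direction. Cx3cr1, the receptor for neuronal fractalkine, had 0.525 to 0.870 CPM in control samples (median 0.627) and 0.862, 0.532, 0.811, 0.677 and 0.616 CPM in mimic replicates 1 to 5. The groups overlapped almost completely, and the log2 fold change was 0.05 (95% interval -0.37 to 0.48, adjusted p = 0.950). Csf1r, the receptor for the survival factors CSF1 and IL-34, had 4.38 to 5.66 CPM in control samples (median 5.11) and 4.82, 5.24, 5.68, 4.94 and 4.31 CPM in mimic samples. Its log2 fold change was -0.05, with the narrowest interval of this role (-0.22 to 0.13, adjusted p = 0.865). Exons of Hmgxb3 on the opposite strand cover 15.1% of the exon bases of Csf1r, and the strand setting of the counting was not stated, so part of these reads can belong to Hmgxb3.

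P2ry12, the ADP receptor that guides microglial processes, was among the scarcest tested members. It had 0.174 to 0.408 CPM in control samples (median 0.272) and 0.254, 0.228, 0.108, 0.199 and 0.284 CPM in mimic samples. The lowest value was that of mimic replicate 3, but the groups overlapped. The log2 fold change of -0.38 had an interval from -1.07 to 0.31 (adjusted p = 0.677). It became -0.23 without control replicate 1 and -0.49 without mimic replicate 5. Fcrls, an Fc receptor-like scavenger protein of mouse microglia, stood at 0.463 ± 0.152 CPM in control and 0.386 ± 0.108 in mimic samples, with a log2 fold change of -0.27 (interval -0.85 to 0.31), which became -0.08 without control replicate 4.

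Tmem119, a transmembrane protein used to tell microglia from other macrophages, went the other way. It had 1.03 to 1.53 CPM in control samples (median 1.22) and 1.62, 2.20, 1.46, 1.59 and 2.08 CPM in mimic samples. Mimic replicates 2 and 5 were the highest, and the groups overlapped only through mimic replicate 3, which lay below control replicates 4 and 6. The log2 fold change was 0.54 (interval 0.22 to 0.86, unadjusted p = 0.00158, adjusted p = 0.0534), so it missed the threshold. Without control replicate 4 or without mimic replicate 3 it was called, with adjusted p = 0.0400 and 0.0406, whereas without control replicate 1 or without mimic replicate 2 the adjusted p was 0.183 and 0.204 (log2 fold changes 0.45 and 0.45). Tmem119 is also expressed by bone-forming and other mesenchymal cells, and the markers of fibroblasts and vessels had summed levels of 294 to 434 CPM in control and 438 to 580 CPM in mimic samples, without overlap. Their part in the level of Tmem119 was not tested.

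The other members of this role had too few reads to be compared. P2ry13, a second ADP receptor, had 0 to 3 counts per sample. Siglech, a microglial sialic acid-binding lectin, had 0 to 1. Gpr34, a lysophosphatidylserine receptor, had 1 to 5, Selplg, the P-selectin ligand, had 0 to 6, and Slc2a5, a fructose transporter, had 0 to 5. Summed over all 10 genes, the role took 7.35 to 8.77 CPM in control and 7.96 to 8.87 CPM in mimic samples, with overlap.

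The C1q chains, whose 3 genes stand side by side on chromosome 4 and assemble into the recognition part of complement component C1, were all lower in estimate. C1qa had 1.79 to 2.16 CPM in control samples (median 1.99) and 1.57, 1.44, 1.41, 1.71 and 1.23 CPM in mimic samples. Every mimic sample lay below every control sample, and mimic replicate 5 was the lowest. The log2 fold change was -0.42 (interval -0.68 to -0.15, unadjusted p = 0.00319, adjusted p = 0.0782), which did not pass the threshold.

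C1qb had 0.740 to 1.23 CPM in control samples (median 1.06) and 1.17, 0.684, 1.03, 0.757 and 0.663 CPM in mimic samples. Mimic replicates 1 and 3 lay within the control range and the other 3 mimic samples near or below its lower end, with a log2 fold change of -0.27 (interval -0.67 to 0.13, adjusted p = 0.579). C1qc had 1.09 to 1.73 CPM in control samples (median 1.502) and 0.963, 1.29, 0.811, 1.35 and 1.47 CPM in mimic samples. Here mimic replicates 1 and 3 were the lowest, the samples in which C1qb was the highest of the group, and the log2 fold change was -0.31 (interval -0.65 to 0.02, adjusted p = 0.365). Summed over the 3 chains, the level was 4.48 ± 0.497 CPM in control and 3.51 ± 0.242 in mimic samples, and the groups did not overlap, with the lowest control sample at 3.829 and the highest mimic sample at 3.824 CPM.

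Over all genes, every mimic sample lay below every control sample in 1.73% of tested genes and above every control sample in 1.16%. Among the 26 tested members, 2 had all mimic samples lower, C1qa and Cd68, and 0 had all higher.

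The immune receptors, adaptors and their brakes were the role with the lowest log2 ratio of summed levels. Their 10 genes took 8.49 to 9.29 CPM in control samples and 5.83 to 7.46 CPM in mimic samples, without overlap, a log2 ratio of the means of -0.39. All 7 tested genes of the role had lower estimates, and 0 were called. Trem2, the lipid and apolipoprotein receptor that senses debris, had 0.602 to 1.39 CPM in control samples (median 1.08) and 0.912, 0.532, 0.974, 0.996 and 0.758 CPM in mimic samples. The groups overlapped, since control replicate 6 was lower than 4 of the 5 mimic samples, and the log2 fold change was -0.32 (interval -0.74 to 0.10, adjusted p = 0.501).

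The adaptors that carry the signal of Trem2 and the Fc receptors had intervals that left out 0. Tyrobp (DAP12) had 1.58 to 2.18 CPM in control samples (median 1.76) and 1.62, 1.75, 1.14, 0.996 and 1.23 CPM in mimic samples. Mimic replicates 3, 4 and 5 were below every control sample while replicates 1 and 2 were within the control range, and the log2 fold change was -0.39 (unadjusted p = 0.0180, adjusted p = 0.196). Fcer1g, the common gamma chain of the Fc receptors, had 0.467 to 0.965 CPM in control samples (median 0.631) and 0.558, 0.418, 0.649, 0.398 and 0.142 CPM in mimic samples. Its log2 fold change of -0.62 was the lowest of the members, and it became -0.41 without mimic replicate 5, which was far the lowest sample (unadjusted p = 0.0310 and adjusted p = 0.256 with all samples).

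The remaining receptors of the role had smaller differences than their intervals. The log2 fold changes were -0.36 for Fcgr3, a low-affinity IgG receptor, -0.28 for Ptprc, the CD45 phosphatase of all leukocytes, and -0.30 for Cd53, a leukocyte tetraspanin. They became -0.24 without mimic replicate 1 for Fcgr3, -0.12 without mimic replicate 2 for Ptprc and -0.14 without control replicate 4 for Cd53, and that of Trem2 became -0.17 without mimic replicate 2. Inpp5d (SHIP1), the lipid phosphatase that dampens this signalling, had 1.42 to 1.87 CPM in control samples and 1.77, 1.78, 1.19, 1.07 and 1.14 CPM in mimic samples. As with Tyrobp, mimic replicates 1 and 2 were inside the control range and replicates 3, 4 and 5 below it (log2 fold change -0.31, adjusted p = 0.331).

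Itgam failed the filter by 1 sample. It had 7, 5, 3, 10, 7 and 7 counts in control replicates 1 to 6 and 3, 2, 1, 2 and 3 counts in mimic replicates 1 to 5. Thus 5 of 6 control samples and 0 of 5 mimic samples reached 5 counts, and the filter removed the gene through its low values in the mimic group. In CPM the groups overlapped, with 0.138 to 0.408 in control and 0.0541 to 0.152 in mimic samples. In the fit without a count filter its log2 fold change was -1.26 (unadjusted p = 0.00985, adjusted p = 0.194). Exons of another annotated gene on the same strand, Gm49368, cover 68.7% of the exon bases of Itgam, and reads that fit both may not have been counted for either, so the level of Itgam is uncertain. Cd33, a sialic acid-binding inhibitory receptor, and Ly86 (MD-1), a partner of a Toll-like receptor relative, also failed the filter, with 2 to 11 and 1 to 13 counts per sample.

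**Figure D3:**
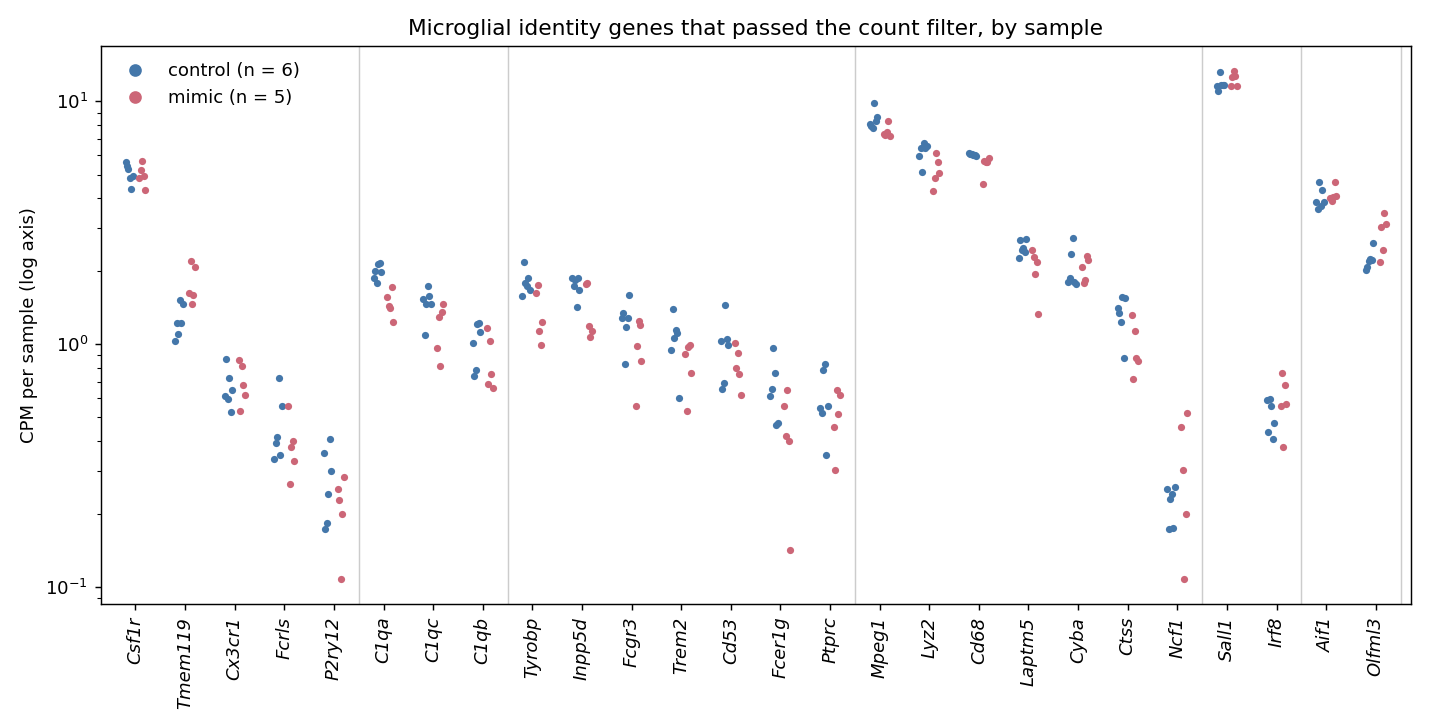
Level of each of the 26 tested members in every sample, in CPM on a log axis, with control samples in blue (n = 6) and mimic samples in red (n = 5), grouped by role and ordered by level. Sall1 is the most abundant at a mean of 12.1 CPM and P2ry12 the scarcest at 0.249 CPM, and only C1qa and Cd68 have every mimic sample below every control sample.

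The lysosome, phagosome and oxidase genes held the largest share of the summed level, with 25.2 to 29.6 CPM in control and 22.5 to 25.2 CPM in mimic samples, without overlap. Ctss, the cysteine protease cathepsin S, had 0.875 to 1.56 CPM in control samples (median 1.38) and 1.32, 0.722, 1.14, 0.876 and 0.853 CPM in mimic samples. Control replicate 5 was as low as the lower mimic samples, so the groups overlapped, and the log2 fold change was -0.50 (interval -0.87 to -0.14, adjusted p = 0.136). Cd68, a heavily glycosylated lysosomal membrane protein, was uniform in control samples at 5.93 to 6.14 CPM and had 4.56, 5.66, 5.62, 5.66 and 5.88 CPM in mimic samples. Mimic replicate 1 was far the lowest and the other 4 mimic samples lay just below the lowest control sample, and the log2 fold change was -0.14 (interval -0.29 to 0.02, adjusted p = 0.390).

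Lyz2, the lysozyme of myeloid cells, had a log2 fold change of -0.26 (interval -0.44 to -0.08, adjusted p = 0.119). Lyz1 is a close copy of it, so reads may be shared between them. Mpeg1, the pore-forming perforin-2 of macrophages, was the most abundant gene of the role, with 7.76 to 9.81 CPM in control and 7.20 to 8.32 CPM in mimic samples and a log2 fold change of -0.16 (adjusted p = 0.258). Laptm5, a lysosomal membrane protein of blood cells, had a log2 fold change of -0.28 (adjusted p = 0.291), which became -0.16 without mimic replicate 5.

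The oxidase subunits had higher estimates than the other genes of the role. The intervals of both included the estimates of Cd68 and Mpeg1, and the difference was not tested. Cyba (p22phox) had a log2 fold change of -0.00 (interval -0.29 to 0.28), a value whose sign turned positive with upper-quartile scaling. Ncf1 (p47phox) had 0.174 to 0.258 CPM in control samples and 0.456, 0.304, 0.108, 0.199 and 0.521 CPM in mimic samples. Mimic replicates 1, 2 and 5 were above and mimic replicate 3 below every control sample. The log2 fold change was 0.46 (interval -0.24 to 1.16), and became 0.23 without mimic replicate 5 and 0.64 without mimic replicate 3. Exons of Gtf2ird2 on the opposite strand cover 11.1% of the exon bases of Ncf1.

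Among the transcription factors, Sall1, which keeps microglia in their resting state but is also expressed by neural progenitors, had 11.01 to 13.23 CPM in control samples and 11.6, 12.7, 13.3, 12.7 and 11.6 CPM in mimic samples. Its log2 fold change was 0.07 with the narrowest interval of the members (-0.05 to 0.19, adjusted p = 0.646). Irf8, a factor of myeloid development, had 0.510 ± 0.0813 and 0.588 ± 0.144 CPM (log2 fold change 0.20, interval -0.26 to 0.66). Its log2 fold change became 0.09 without mimic replicate 2 and 0.31 without mimic replicate 3. Spi1, which encodes PU.1, the factor that opens myeloid enhancers, failed the filter, with 16, 10, 3, 5, 3 and 2 counts in control and 5, 2, 3, 2 and 2 counts in mimic replicates. Its CPM ran from 0.0860 to 0.435 in control and from 0.0760 to 0.254 in mimic samples, with overlap, and the log2 fold change without a filter was -0.89 (adjusted p = 0.438).

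The last 2 members were not lower. Aif1 (IBA1), the actin-bundling protein stained to show microglia, had 3.61 to 4.64 CPM in control samples (median 3.86) and 4.00, 3.87, 4.06, 4.66 and 4.08 CPM in mimic samples. The groups overlapped throughout, and the interval of the log2 fold change of 0.06 ran from -0.12 to 0.25 (adjusted p = 0.821). Olfml3, a secreted olfactomedin-like protein, had 2.02 to 2.62 CPM in control samples and 2.18, 3.04, 2.43, 3.46 and 3.13 CPM in mimic samples. Mimic replicates 2, 4 and 5 were above every control sample, with a log2 fold change of 0.38 (interval 0.13 to 0.64, unadjusted p = 0.00395, adjusted p = 0.0887). It was called without mimic replicate 1 (adjusted p = 0.0385), and the adjusted p without other single samples ran up to 0.271 (without mimic replicate 4). Olfml3 is also made by vascular and mesenchymal cells, and the part of the fibroblast and vascular markers, given above, in its level was not tested.

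**Figure D4:**
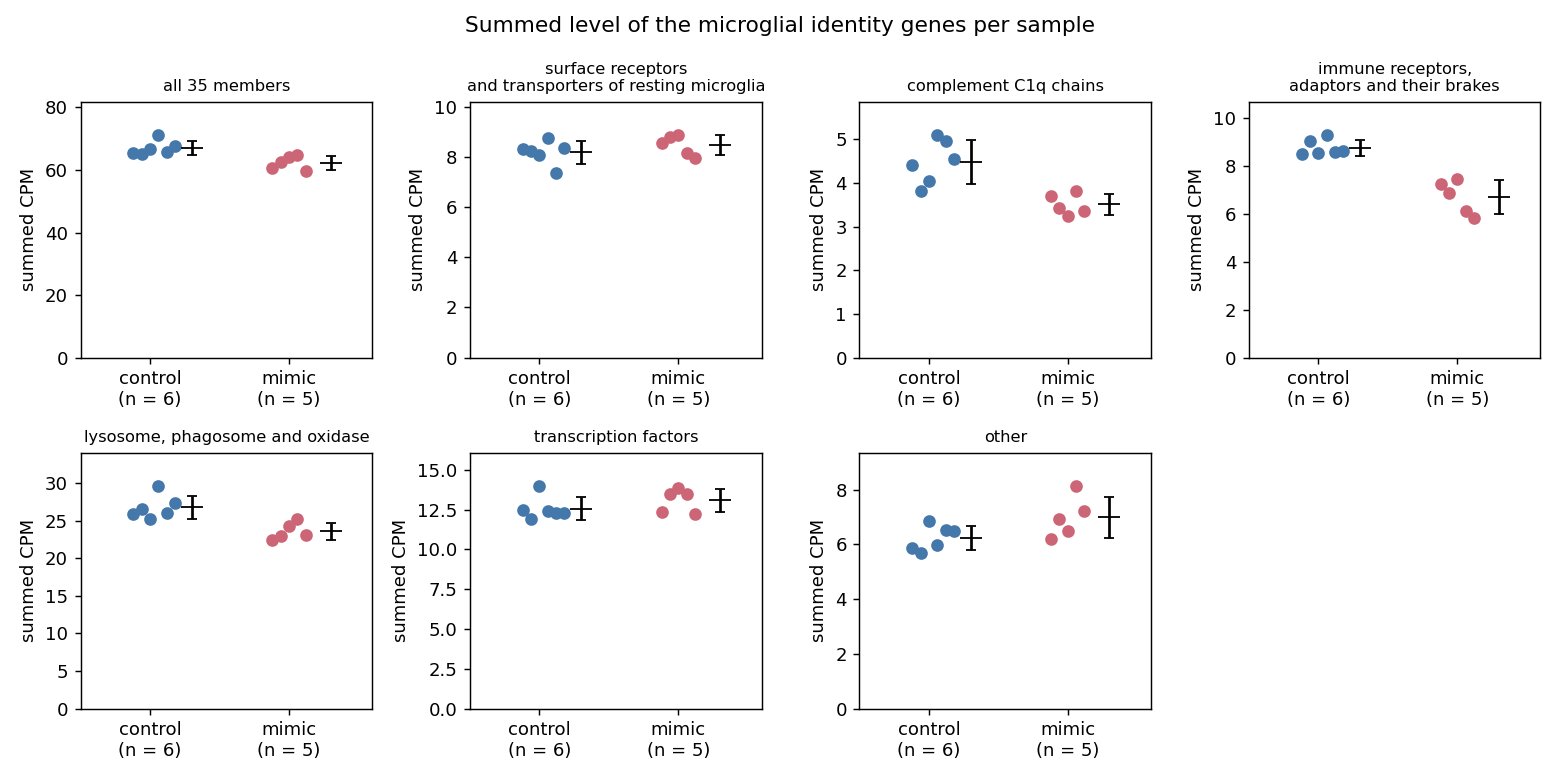
Summed CPM of the 35 members and of each role in every sample, with the mean and SD of each group as bars beside the points and axes that start at 0. The summed C1q chains, immune receptors and lysosomal genes have every mimic sample below every control sample, while the surface receptors, transcription factors and the pair of Aif1 and Olfml3 overlap.

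Summed over all 35 members, the level was 66.98 ± 2.23 CPM (SD, n = 6) in control and 62.32 ± 2.25 CPM (n = 5) in mimic samples. The lowest control sample stood at 65.19 and the highest mimic sample at 64.88 CPM, so the groups came close without overlap, and the log2 ratio of the means was -0.10. Sall1 was the largest single part of this sum, and without it the ranges were 53.5 to 59.4 and 48.1 to 52.2 CPM. Control replicate 4 had the highest level of 8 of the 26 tested members, and without it their median log2 fold change was -0.15 in place of -0.27. Mimic replicate 5 had the lowest level of 7 members, and without it the median was -0.20. Without mimic replicate 2 it was -0.16.

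Within a sample, the ratio of counts of Tmem119 to C1qa separated the groups. It was 0.551 to 0.739 in control and 0.930 to 1.69 in mimic samples. The ratio of Olfml3 to Ctss was 1.43 to 2.53 in control and 1.65 to 4.21 in mimic samples, with overlap. A ratio within a library does not depend on its scaling, and both pairs were picked after their values had been seen.

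Promoters were searched for the motif of PU.1, the product of Spi1, which is known to drive many myeloid genes. Windows from 250 bases before to 50 after the start site were given by RefSeq (GRCm38.p6) for 28 of the 35 members, in 33 windows. A strong PU.1 motif, GAGGAAGT on either strand, was in 4 of the 33 (12.1%), those of Inpp5d, Ctss, Cd53 and C1qc, and in 3.20% of all 32851 windows. The combined ETS-IRF motif GGAANNGAAA was in 1 (Cd68, 3.03%) against 2.72% of all windows. The stretches of Inpp5d (chr1:87620281-87620310, plus strand) and C1qc (chr4:136893091-136893120, minus strand) are printed with the motif in capitals, as the instances that lie wholly before the start site. In C1qc it reads on the strand opposite to the gene.
Inpp5d promoter: gtttctataatGAGGAAGTtctgtgcagct
C1qc promoter: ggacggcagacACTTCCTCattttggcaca
The log2 fold changes of these 4 genes were -0.31, -0.50, -0.30 and -0.31, within the range of the members without the motif.

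Other microglial and myeloid genes, listed without regard to how they moved but with earlier results of these data known, gave a broader view. Of 44 genes, 33 were tested, and 3 were called, all lower in the mimic group. Among all 17365 tested genes, 307 were called lower and 188 higher. C3ar1, the receptor for complement fragment C3a, fell from 2.13 ± 0.305 CPM in control to 1.40 ± 0.310 in mimic samples (log2 fold change -0.60, adjusted p = 0.0243). Cd84, a leukocyte adhesion receptor of the SLAM family, fell from 0.902 ± 0.184 to 0.454 ± 0.202 CPM (log2 fold change -0.96, adjusted p = 0.0301). Vav1, an exchange factor downstream of immune receptors, fell from 0.456 ± 0.0998 to 0.205 ± 0.0663 CPM (log2 fold change -1.09, adjusted p = 0.0472). It had 2, 5, 4, 7 and 5 counts in mimic replicates 1 to 5. It reached 5 counts in 6 of 6 control and 3 of 5 mimic samples, so this call rests on few counts. In each of the 3, every mimic sample lay below every control sample, which held for 1.73% of all tested genes. Myo1f, a leukocyte myosin, came next with a log2 fold change of -0.93 (adjusted p = 0.0692). By sign 25 of the 33 (75.8%) were lower, against 50.1% of all tested genes. The median log2 fold change of the 33 was -0.15.

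Genes that rise when microglia turn to a reactive or disease-associated state had 14 of 17 listed genes tested. Of these, 2 were called lower (Lgals3 and Ccl6) and 0 higher. Among all tested genes, 2.85% were called in either direction. Lgals3 (galectin-3) had 2.51 to 3.57 CPM in control and 1.72 to 2.27 CPM in mimic samples, without overlap, and fell by 0.65 on the log2 scale (adjusted p = 0.00262). Ccl6, a chemokine of myeloid cells, had 0.230 to 0.817 CPM in control and 0.0541 to 0.237 CPM in mimic samples, overlapping at the edge, with a log2 fold change of -1.80 (adjusted p = 0.00904). It reached 5 counts in 6 of 6 control samples but in 1 of 5 mimic samples, so it passed the filter through the group where it was high and the call is uncertain. Gpnmb, a lysosomal glycoprotein, and Itgax, the CD11c integrin, had log2 fold changes of -0.61 and -0.76 with adjusted p = 0.0560 and 0.0568. Apoe, Lpl and the cathepsins Ctsb, Ctsd and Ctsl, which astrocytes and neurons express as well, had log2 fold changes between -0.09 and -0.02 and were not called.

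Cytokines and inflammatory enzymes had few reads, since 5 of 15 passed the filter and 0 were called. Il1b, Tnf and Il6 had 31, 8 and 4 counts over all 11 samples together. Ccl3, a chemokine of activated microglia, had the smallest p of the 5, with 0.572 ± 0.213 CPM in control and 0.263 ± 0.152 in mimic samples (log2 fold change -1.10, adjusted p = 0.0827).

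The signals that act on microglia were tested for 14 of 15 genes, and 0 were called. The smallest adjusted p was 0.152, for the TGF-beta receptor Tgfbr2 (log2 fold change 0.22), followed by 0.232 for Mertk (-0.17), a receptor for dying cells. Among complement genes outside C1q, 9 of 10 were tested and 0 called, with a smallest adjusted p of 0.0717. By sign 8 of the 9 were higher in the mimic group, with a median log2 fold change of 0.20, and 1 had every mimic sample above every control sample. C3, the central component, had a log2 fold change of 0.88 (adjusted p = 0.1003).

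Markers of the other cell types also differed in summed level. Neuron markers took 7324 to 7498 CPM in control and 7036 to 7189 CPM in mimic samples, and astrocyte markers 4901 to 5341 and 4497 to 4813 CPM, both without overlap. Of the 11 neuron markers 2 were called lower (Slc17a7 and Nefm, log2 fold changes -0.14 and -0.10) and 1 higher (Slc17a6, 0.28), and of the 9 astrocyte markers 1 was called lower (Slc1a2, -0.19). Before adjustment, 63.6% of the neuron markers and 55.6% of the astrocyte markers were lower at p below 0.05, against 8.41% of all tested genes. After adjustment, 2.85% of all tested genes were called in either direction. Of 10 tested fibroblast and vascular markers, 9 had a higher estimate (median log2 fold change 0.42). Of the 10, 7 (70%) were higher at an unadjusted p below 0.05, against 7.30% of all tested genes. Among these Cdh5 was called higher (0.77), and Rgs5, the single one with a lower estimate, was called lower (-0.66). Of 9 oligodendrocyte lineage markers 0 were called. The part of these differences in the levels of the microglial identity genes was not tested.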

How the data were processed

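Poly(A) RNA of 11 samples was sequenced by the authors as 50-base single-end reads, mapped with STAR (2.5.2b) to mm10 (GRCm38) and counted per Ensembl gene with featureCounts (Subread 1.5.1), and the raw counts were deposited for each sample. The annotation release and the strand setting are not given in the sources used here. The authors also deposited a normalized signal for 16921 genes, equal to the counts divided by 1 factor per sample, which served as an alternative only. In it 0 value columns stayed unassigned, and every count row carried a gene identifier. Symbols came from GENCODE M21 (48349 of 48709 identifiers matched), sequences from RefSeq and from the study's list of oligonucleotides.

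Groups were taken from the sample titles. Counts were tested with edgeR 4.0.16 (R 4.3.3; TMM scaling, robust quasi-likelihood F test, two-sided, group as the sole term, filter of 5 counts in 50% of samples as in the study's methods). The study used DESeq2, fitted here (1.42.0) as an alternative beside other scalings and filters, single samples left out, a replicate block, and limma 3.58.1 on log2(signal + 1) and log2(signal + 0.5). The code was tested on simulated data. SE was taken as the size of the log2 fold change over the root of F, and SDs are over samples. Cx3cr1, P2ry12, Tmem119, Csf1r, Aif1, Trem2, Itgam, Spi1 and the C1q genes were described by rule. For these, values were given for every mimic sample, and a range or every value for the control samples. From each other list up to 4 tested genes with the smallest p could be named. Further genes were named after their values were seen, and some that the rule would pick are not reported here. The members and lists were chosen with earlier results of these data known. Replicate numbers did not pair the samples (see the closing part on processing).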

Additional observations from a re-analysis of the deposited data

Results flagged for a closer look

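In each group the level of every tested member was examined for a sample set apart from the rest by Dixon's test. Of 54 series examined (the 26 tested members and their sum, in both groups), 4 had such a sample, where chance would give about 1 in 20, or 2.7. Cd68 was lowest in mimic replicate 1 at 4.562 CPM, with the next sample at 5.62. Mpeg1 was highest in mimic replicate 4 at 8.325 CPM, with the next at 7.46. Aif1 was highest in the same sample at 4.66 CPM, with the next at 4.08. Sall1 was highest in control replicate 3 at 13.23 CPM, with the next at 11.7. None of the 4 genes was called with or without these samples, and their log2 fold changes without the sample were -0.08 for Cd68, -0.20 for Mpeg1, 0.02 for Aif1 and 0.10 for Sall1.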

How the results depend on the processing

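The number of members called lower was 0 under all 19 alternatives. The number called higher was 1 without a count filter (Tmem119, log2 fold change 0.54, adjusted p = 0.0352) and 0 to 1 when single samples were left out. Over all genes, 495 calls became 785 without a count filter and 333 with the replicate block, and ranged from 218 (without control replicate 1) to 496 (without control replicate 2), with 228 without mimic replicate 2 and 283 without mimic replicate 4. Upper-quartile scaling gave 460 calls and moved their split to 226 lower and 234 higher, from 307 and 188, and the block moved it to 163 and 170. The cause was not tested. Of 486 values of single members with an adjusted p, 473 stayed as in the report in sign and call, 4 passed the threshold and 9 reversed. Cyba reversed to 0.00755 with upper-quartile scaling and to 0.00914 and 0.00934 with the normalized table (pseudocounts 1 and 0.5), and its range over single samples left out was -0.0638 to 0.106. Cx3cr1 ranged from -0.0306 to 0.150 and Csf1r from -0.0874 to 0.000566. The replicate block changed no call of a member (smallest adjusted p 0.0904). Same-numbered samples had correlated deviations of -0.0232 to 0.0158 (5 pairs), within those of other pairs (-0.0728 to 0.0767), so the numbers gave no pairing. Depth limits the members: 10 tested members had under 1 CPM, and half-widths of 95% intervals had a median of 0.326 on the log2 scale.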

Other observations

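The genes whose levels moved most like the summed level of the tested members within the groups were named by a rule. The measure was Pearson's correlation of log2 CPM, after subtraction of the group mean, over the 11 samples. The 10 highest were C87436 (0.917), Tinf2, Zfp61, Plch1, 6030407O03Rik, Scpep1, Trmt44, Tspan11, 1700020D05Rik and Glt8d1 (0.853). None is on a marker list used here, and none was called in the comparison. All points share the library of each sample and its depth. The same correlation for single members ran from -0.55 (Ncf1) to 0.82 (Mpeg1), a gene that is itself part of the sum.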
